A study of Caenorhabditis elegans with 2 samples.

Results

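The genes of the Caenorhabditis elegans mitochondrial genome are described here by the peaks that lay over them in a ChIP-seq experiment on MED-1. They were chosen by annotation alone, as every gene on the mitochondrial chromosome (MtDNA, or chrM) in Ensembl release 115 on WBcel235, which is the ce11 assembly. There were 36 such genes among the 46926 of the whole annotation. They were 12 protein-coding genes, 22 tRNA genes and 2 rRNA genes, and all 36 were on the + strand. The authors' optimal set, taken by irreproducible discovery rate, held 460 peaks, of which 20 were mitochondrial and 440 nuclear.

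Whole hermaphrodite embryos of middle stage, of the strain OP391, were used in 2 biological replicates that form 1 group. OP391 has the genotype unc-119(ed3) III with the insertion wgIs391, which holds med-1 fused at its C-terminus to TY1, EGFP and FLAG, and unc-119(+), a working copy of the mutated gene. The tagged protein therefore came from a transgene, and cells of all embryonic tissues were in each sample. Chromatin was sonicated and precipitated with an antibody to GFP. The control named in the labels was not analysed here, and no sample without the tag was used. Peak lists hold no expression values, so the labelled stage could not be checked against marker genes.

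The mitochondrial genome of animals is a small circle, present in many copies per cell, that is packed by its own proteins and not by histones. In C. elegans its genes sit close together on the same strand and are transcribed into long RNAs, from which the tRNAs, rRNAs and mRNAs are cut. The protein-coding genes make subunits of the respiratory chain complexes I, III and IV and of the ATP synthase, complex V, while the nucleus encodes the other subunits. MED-1 is a GATA-type zinc finger factor of the endoderm and mesoderm pathway, and its known targets are nuclear genes.

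The sequences of the 5 strongest mitochondrial sites are shown first because they have the highest signals in the optimal set among these genes. The summit of the COX3 peak of replicate 1 is shown because it was missing from the other lists, and the centre of the non-coding region because no list had a peak there. Each is the + strand of the RefSeq WBcel235 sequence, from 5′ to 3′, with 50 bases on each side of its centre. Capitals mark the summit base and the 5 bases on each side. The last sequence has no summit and so no capitals.

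ND5, chrM:12399-12499: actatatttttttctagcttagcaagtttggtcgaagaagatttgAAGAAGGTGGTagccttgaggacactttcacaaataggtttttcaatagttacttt
COX1, site late in the gene, chrM:9063-9163: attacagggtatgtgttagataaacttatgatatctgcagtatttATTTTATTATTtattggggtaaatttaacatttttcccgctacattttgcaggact
COX1, site early in the gene, chrM:8251-8351: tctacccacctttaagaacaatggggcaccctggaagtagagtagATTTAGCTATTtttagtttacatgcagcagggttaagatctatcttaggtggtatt
CYTB, chrM:4681-4781: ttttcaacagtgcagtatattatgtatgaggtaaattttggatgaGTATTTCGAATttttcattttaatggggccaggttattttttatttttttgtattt
tRNA-Thr, chrM:6416-6516: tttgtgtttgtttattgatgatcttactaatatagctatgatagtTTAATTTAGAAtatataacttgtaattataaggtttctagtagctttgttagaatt
COX3, replicate 1, chrM:6000-6100: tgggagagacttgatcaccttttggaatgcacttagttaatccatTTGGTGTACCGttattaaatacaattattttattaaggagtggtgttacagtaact
non-coding region, chrM:13511-13611: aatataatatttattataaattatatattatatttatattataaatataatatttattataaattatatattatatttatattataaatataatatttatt

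The ND5 window had a GC content of 33.7% and the early COX1 window 39.6%, while the late COX1 window had 28.7%, CYTB 25.7% and tRNA-Thr 21.8%. The COX3 window had 33.7%. The window at the centre of the non-coding region held no G or C. The whole chromosome of 13794 bp had a GC content of 23.8%.

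Peak strength is given as the signal that the authors deposited for each peak, a number whose scale is not given in the sources used here and which ranks peaks within a list. In the optimal set the mitochondrial peaks had signals from 46.0 to 778 and the nuclear peaks reached at most 521. Mitochondrial peaks made up 6 of the 10 strongest optimal peaks, 12 of the 50 strongest and 16 of the 100 strongest. The remaining 4 had ranks between 108 and 361. In replicate 1 the mitochondrial peaks had a median signal of 95.5, against 15.3 for nuclear peaks, and in replicate 2 they had 89.6, against 9.04. The nuclear medians include the background that those lists hold. In each replicate 9 of the 20 strongest peaks were mitochondrial, as in the optimal set.

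Of the 23 mitochondrial peaks in the pooled list, which was made from both replicates and includes background, 20 (87.0%) were kept in the optimal set. Over all 30000 pooled peaks the share kept was 1.53%. The optimal set holds the strongest pooled peaks, so this count follows from the signals. The weakest mitochondrial peak inside the set was in COX2, with a signal of 46.0 and rank 361, and the strongest one outside was in ND4, with 24.8 and rank 1930. The lowest signal of the whole set was 38.9.

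An optimal summit lay in 14 of the 36 genes. These were 10 of the 12 protein-coding genes, both rRNA genes and 2 of the 22 tRNA genes. For nuclear genes the share under an optimal summit was 0.726% of protein-coding genes and 13.9% of tRNA genes. The densities behind these shares also differ, with 1.45 optimal peaks per kb on the mitochondrial genome and 4.39 per Mb on the nuclear chromosomes. Protein-coding genes held 16 of the 20 summits (80%) and make up 75.4% of the mitochondrial chromosome. The rRNA genes held 2 summits (10%, against 11.9% of the chromosome) and the tRNA genes 2 (10%, against 8.83%). No optimal summit fell between genes, a class that makes up 3.84% of the chromosome. The summits were thus spread over the gene classes close to the shares of sequence that those classes take up.

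**Figure D1:**
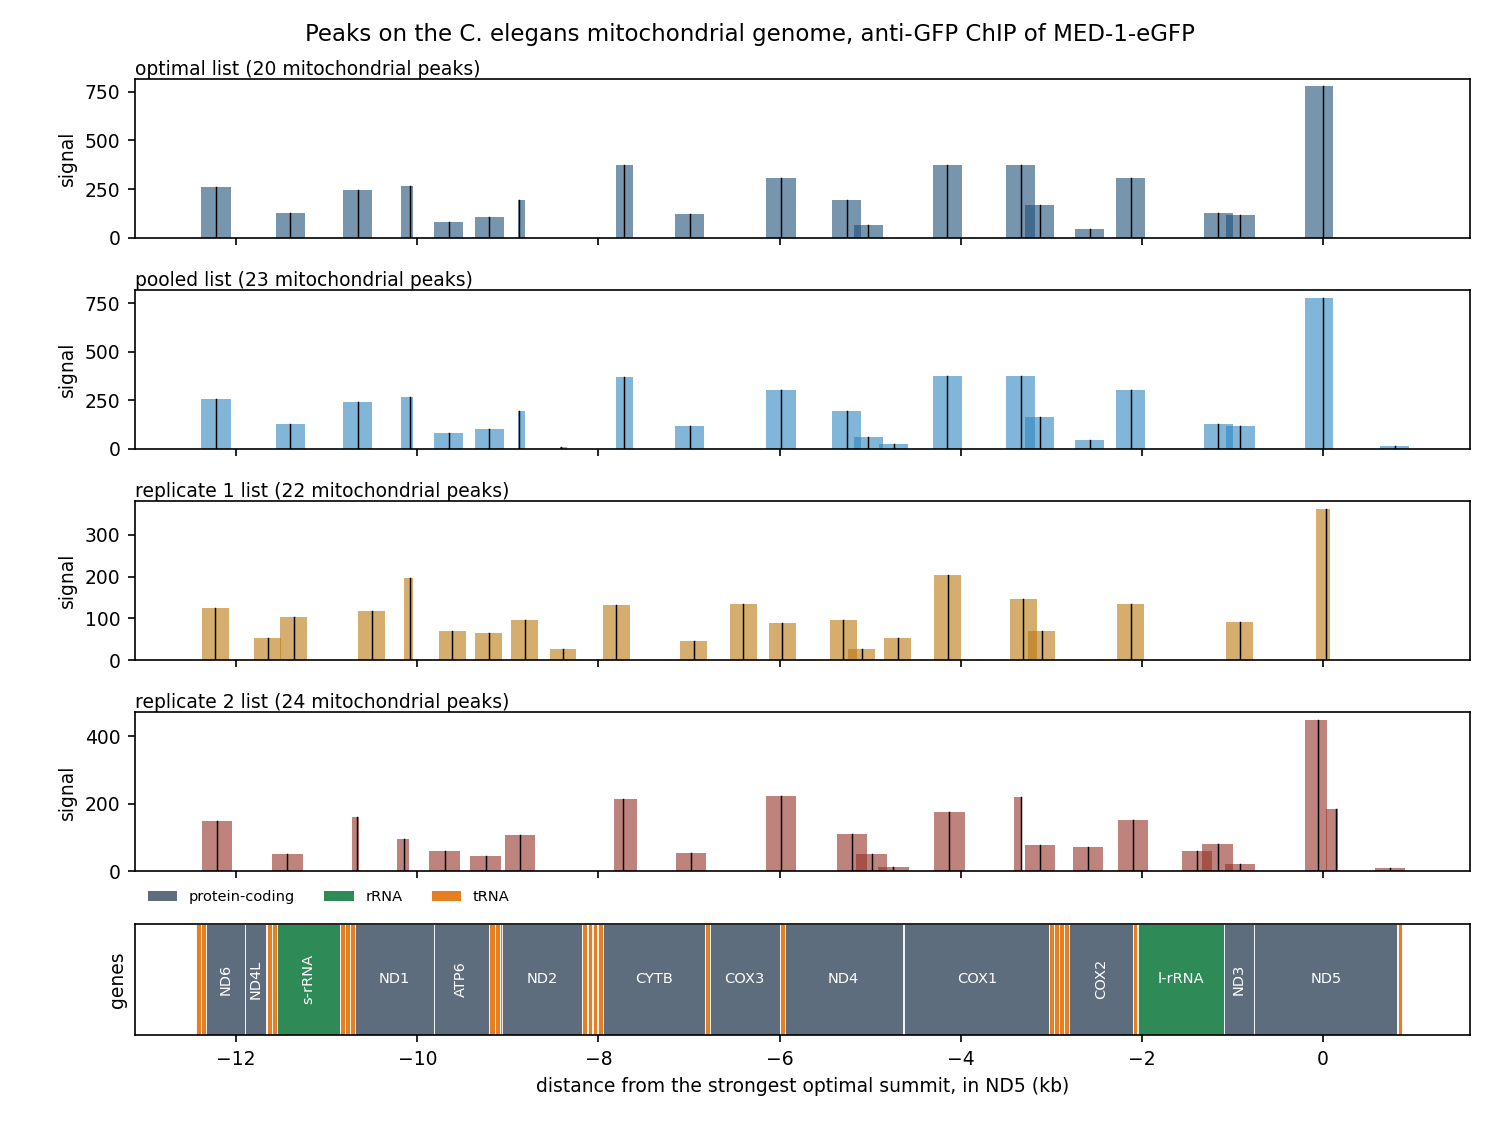
Signal of each mitochondrial peak in the optimal, pooled, replicate 1 and replicate 2 lists, drawn over the width of the peak with a black line at the summit, against the distance in kb from the strongest optimal summit in ND5; the lowest panel shows the genes. The ND5 peak is the highest in all 4 lists, with 778 in the optimal and pooled lists, 362 in replicate 1 and 448 in replicate 2, and the COX3 peak is in the replicate 1 panel only.

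Complex I, the NADH dehydrogenase that passes electrons from NADH to ubiquinone, has 7 mitochondrial genes, and 6 of them had an optimal summit, 8 summits in all. ND5 (WBGene00010967, chrM:11691-13272) encodes a subunit of the membrane arm. It had the strongest peak of the experiment, with its summit at 12449, a signal of 362 in replicate 1 and 448 in replicate 2, and rank 1 in both. The optimal ND5 peak, from 12257 to 12561, covered 305 bp. In replicate 2 the same place held a pair of neighbouring peaks, with summits at 12390 and 12591 and signals of 448 and 185. The replicate 1 summit, at 12487, lay between them. The peaks covered a small part of the long ND5 gene, 19.7% of it in the optimal set, 9.86% in replicate 1 and 39.6% in replicate 2.

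ND1 (WBGene00010959, chrM:1763-2635), a core membrane subunit, had a pair of optimal peaks of similar strength. The peak near the 5′ end of the gene, with its summit at 1789, had an optimal signal of 244, and 119 in replicate 1 and 162 in replicate 2. The summits of this peak differed between replicates by 168 bp, with replicate 1 at 1947 and replicate 2 at 1779. The second peak, with its summit at 2366, reached 266 in the optimal list, 196 in replicate 1 and 96.6 in replicate 2. The order of the ND1 peaks was therefore reversed between replicates, and neither was the stronger one beyond the replicate spread.

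ND6 (WBGene00010957, chrM:113-549) had a signal of 258, with 125 in replicate 1 and 149 in replicate 2, and its replicate summits were 18 bp apart. ND2 (WBGene00010961, chrM:3389-4269) had an optimal signal of 193, and 95.0 in replicate 1 and 107 in replicate 2. Its optimal peak covered just 86 bp. Both encode membrane subunits, and in both the replicate ranks were close, 16 and 15 for ND6 and 30 and 35 for ND2.

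ND4 (WBGene00010963, chrM:6506-7808), a further membrane subunit, had optimal summits at 7193 and 7429. The stronger had a signal of 193, with 96.1 in replicate 1 and 112 in replicate 2, and the weaker had 62.9, with 26.2 and 51.6 in the same order. In both replicates the stronger site was the same. A further ND4 site near 7710, outside the optimal set, had 53.8 in replicate 1 at rank 94 and 12.2 in replicate 2 at rank 5522, so the replicates differed widely there.

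ND3 (WBGene00010966, chrM:11356-11691) was the protein-coding gene that optimal peaks covered from end to end. Its summit was at 11536, with replicate summits 7 bp apart, yet the signal was 90.4 at rank 36 in replicate 1 and 21.5 at rank 604 in replicate 2. ND3 thus had a well-placed summit and the widest disagreement in strength among the optimal peaks where both replicates had a summit within 100 bp. ND4L (WBGene00010958, chrM:549-783), the remaining complex I gene, had no summit in any list. Replicate 1 covered 57.9% of it and the optimal set and replicate 2 covered none.

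CYTB (WBGene00000829, chrM:4504-5621), which encodes cytochrome b, is the mitochondrial gene of complex III. Its stronger summit, at 4731, had a signal of 372, with 131 in replicate 1 and 214 in replicate 2. Its second summit, at 5456, had 119, with 46.4 in replicate 1 and 55.9 in replicate 2. The first site was above the second in both replicates, and the replicate ranges did not overlap.

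Complex IV, cytochrome c oxidase, has 3 mitochondrial genes, of which COX1 and COX2 held 5 optimal summits. COX1 (WBGene00010964, chrM:7827-9428) encodes the catalytic subunit and had 3 summits. The summit at 8301 had a signal of 375, with 204 in replicate 1 and 174 in replicate 2. The summit at 9113 had 376, with 147 in replicate 1 and 221 in replicate 2. These sites were alike in strength within the replicate spread. The third summit, at 9324, had 166, with 69.1 in replicate 1 and 77.8 in replicate 2, below the other COX1 sites in both replicates.

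COX2 (WBGene00010965, chrM:9649-10348), which takes up electrons from cytochrome c, showed one site in both replicates and another in a single replicate. The summit at 10325 had a signal of 305, with 134 in replicate 1 and 153 in replicate 2, and lay near the 3′ end of the gene. In replicate 2 the summit was at 10356, inside the neighbouring tRNA-His gene. The summit at 9874 had 46.0 in the optimal set and 73.3 at rank 64 in replicate 2, and replicate 1 had no overlapping peak. The nearest summit of replicate 1 was 451 bp away.

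COX3 (WBGene00010962, chrM:5678-6449) had no optimal summit, and optimal peaks reached over 18.9% of it. Replicate 1 had a peak in the middle of the gene, from 5902 to 6197, with its summit at 6050 and a signal of 135 at rank 11. Replicate 2, the pooled list and the optimal set had no peak that overlapped it. In the replicate 1 list on ce10 the peak was also present, with its summit at 6049 and a signal of 133 at rank 13. It was the one peak among the 100 strongest of replicate 1 with no overlapping peak in the pooled list, and none of the 81 nuclear peaks among those 100 lacked one. ATP6 (WBGene00010960, chrM:2634-3235), the complex V subunit of the proton channel, had a weaker peak with its summit at 2795 and a signal of 82.4. It had 69.6 in replicate 1 and 60.7 in replicate 2, and replicate summits 86 bp apart.

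The rRNA genes carry the RNAs of the small and large subunits of the mitochondrial ribosome. The small subunit gene (s-rRNA, WBGene00014454, chrM:898-1593) had a summit at 1048 with a signal of 128, with 103 in replicate 1 and 52.3 in replicate 2. The large subunit gene (l-rRNA, WBGene00014472, chrM:10403-11354) had a summit at 11294 with 127 in the optimal set. Replicate 2 had summits in it at 11286, with a signal of 82.6, and at 11059, with 60.0 at rank 96. Replicate 1 had no summit in this gene and covered 7.35% of it, against 61.4% in replicate 2. The small subunit gene was marked in both replicates and the large subunit gene in replicate 2.

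Among the tRNA genes, tRNA-Thr (WBGene00014466, chrM:6450-6504) had the strongest peak, with its summit at 6466 and a signal of 305. It had 222 at rank 3 in replicate 2 and 89.1 at rank 39 in replicate 1, and the summits were 10 bp apart. The other tRNA gene with an optimal summit was tRNA-Lys (WBGene00014458, chrM:3244-3305), where the summit, at 3245, fell next to the 5′ end of the gene with a signal of 105. The replicate summits beside it were at 3236, between genes, in replicate 1 and at 3203, in ATP6, in replicate 2. The optimal peaks at tRNA-Thr and tRNA-Lys were each 324 bp wide, far longer than these genes, so they lay over neighbouring genes as well.

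Optimal peaks overlapped 12 of the 22 tRNA genes and covered 7 of these entirely. Over all 36 genes they overlapped 25 and left 11 untouched. Replicate 1 overlapped 26 genes and replicate 2 overlapped 25, with 23 genes in both, 3 in replicate 1 alone and 2 in replicate 2 alone. The other 8 lay under no peak of either replicate. Among these 8, optimal peaks covered tRNA-Asn entirely and 38.5% of tRNA-Ser (UCN). The genes reached in replicate 1 alone were ND4L, tRNA-Trp and tRNA-Phe, and those in replicate 2 alone were tRNA-Tyr and tRNA-Ala. ND4L and tRNA-Trp were reached by the same replicate 1 peak, with its summit at 796 and a signal of 52.5 at rank 100. The replicate 1 list on ce10 lacked this peak, with no summit between 217 and 1100. Replicate 1 covered just 5.36% of tRNA-Phe. No base of 6 tRNA genes lay under a peak of any list: tRNA-Pro, tRNA-Ile, tRNA-Arg, tRNA-Gln, tRNA-Asp and tRNA-Gly. tRNA-Ile, tRNA-Arg and tRNA-Gln are neighbours between ND2 and CYTB, and tRNA-Asp and tRNA-Gly are neighbours before COX2.

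**Figure D2:**
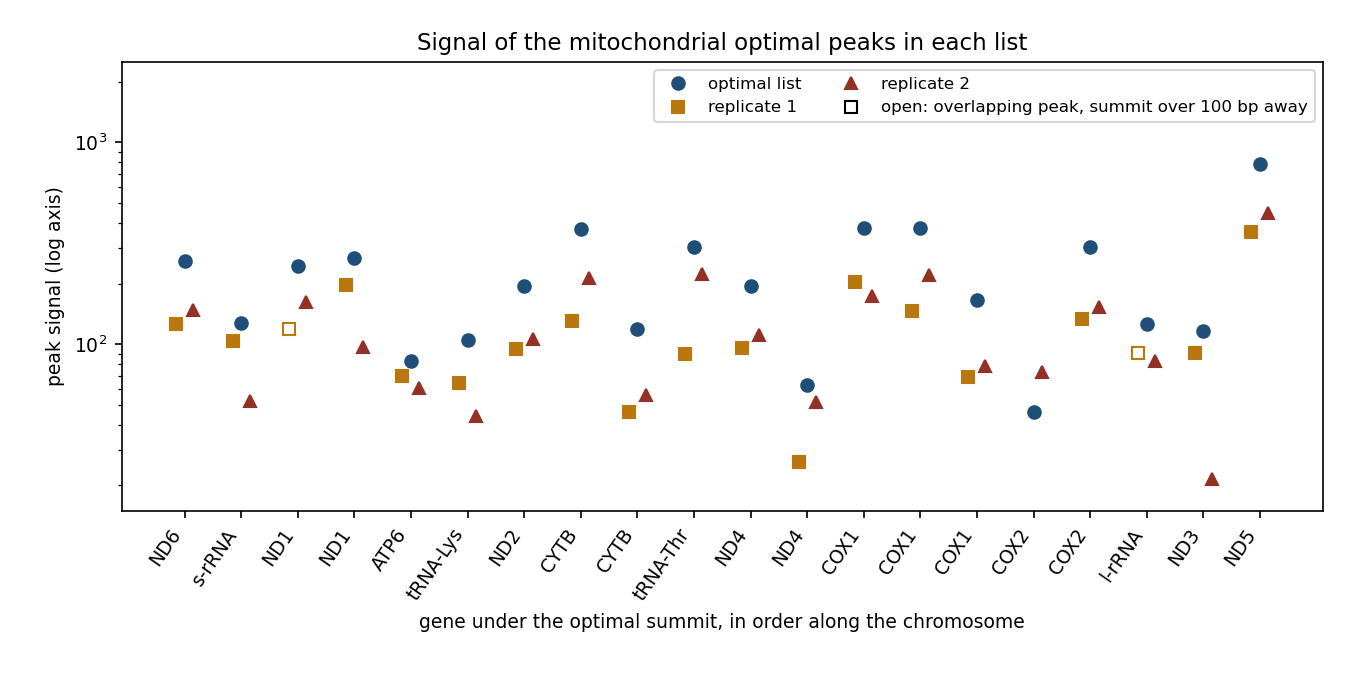
Deposited peak signal, on a log axis, of the 20 mitochondrial optimal peaks and of the replicate peaks that overlap them, in order along the chromosome; open squares are overlapping peaks whose summit is over 100 bp away. ND5 is highest in both replicates, with 362 in replicate 1 and 448 in replicate 2, the replicates are far apart at ND3, with 90.4 in replicate 1 and 21.5 in replicate 2, and the weak COX2 site has no replicate 1 point. The replicate 1 points at l-rRNA and ND3 are the same peak, with its summit in ND3.

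The optimal set was taken by the authors from the data of these same replicates, so agreement of its peaks with them is in part built in, for both genomes. Presence in both replicate lists was not required of every peak. Both replicates had an overlapping peak at 19 of 20 mitochondrial and 415 of 440 nuclear optimal peaks. The replicates had a summit within 100 bp of the optimal summit at 17 of the 20 mitochondrial peaks (85%, exact 95% binomial interval 62.1 to 96.8%). The share for the 440 nuclear optimal peaks was 90%. The interval covers counting error only and treats peaks of 1 chromosome as independent, which they are not. It is not used to compare the genomes. At the 17 sites the signal of replicate 1 divided by that of replicate 2 ran from 0.402, at tRNA-Thr, to 4.20, at ND3, with a median of 0.876. At 396 nuclear optimal peaks matched by the same rule this ratio ran from 0.277 to 3.28, with a median of 0.839. Replicate 1 had the higher value at 6 of the 17 mitochondrial and 127 of the 396 nuclear peaks. The lists of the replicates were made separately, so the ratio is read against the nuclear median and not against 1.

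Positions matched less closely on the mitochondrial genome at finer scale. With a limit of 50 bp, 11 of 20 mitochondrial peaks (55%) and 330 of 440 nuclear peaks (75%) had a summit of both replicates. With a reciprocal overlap of at least 50% of each peak the shares were 75% for mitochondrial and 91.8% for nuclear peaks. Any overlap gave 95% for mitochondrial and 94.3% for nuclear peaks. Peaks of replicate 1 covered 43.4% of the mitochondrial chromosome and those of replicate 2 covered 47.5%. On the nuclear chromosomes, 100272607 bp in all, the replicate 1 list held 2379 peaks and the replicate 2 list, with background, 29976. On the mitochondrial genome a match under any of these rules can therefore come from peak density alone. The part of peak density in the matches was not tested on either genome. The overlap count also takes l-rRNA as matched by the replicate 1 peak with its summit in ND3. The median distance from an optimal summit to the nearest replicate 1 summit was 37.5 bp for mitochondrial and 17 bp for nuclear peaks, and to the nearest replicate 2 summit it was 15.5 bp and 11 bp in the same order. Peaks on the same chromosome are not independent samples, so these shares are given without a test.

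Peaks of similar strength were also set side by side. Among optimal peaks at or above the mitochondrial median signal of 193, 9 of 10 mitochondrial and 25 of 25 nuclear peaks had a summit of both replicates within 100 bp. A similar pattern was seen among the 100 strongest peaks of each replicate. In those lists 3 of 36 mitochondrial peaks (8.33%) and 0 of 164 nuclear peaks had no overlapping peak in the other replicate. The 3 were the COX3 peak of replicate 1 and the COX2 and l-rRNA peaks of replicate 2 at 9859 and 11059. The limit of 100 peaks was chosen after the values were seen. The pattern was not the same among the 460 strongest of each replicate. In replicate 1, 2 of 22 mitochondrial peaks (9.09%) and 33 of 438 nuclear peaks (7.53%) had no partner, and in replicate 2, 2 of 21 mitochondrial peaks (9.52%) and 85 of 439 nuclear peaks (19.4%) had none.

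**Figure D3:**
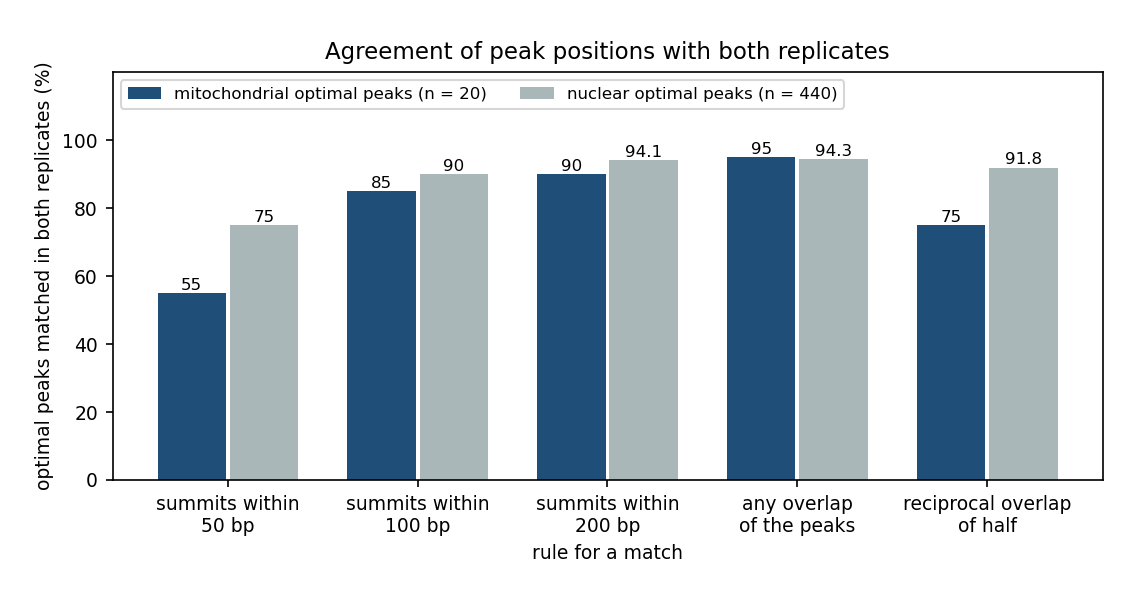
Percent of optimal peaks matched in both replicates under each rule for a match, for the 20 mitochondrial and the 440 nuclear peaks. The mitochondrial bars are lower at 50 bp (55% mitochondrial, 75% nuclear) and for reciprocal overlap (75% mitochondrial, 91.8% nuclear), and nearly equal for any overlap (95% mitochondrial, 94.3% nuclear). Peaks covered 43.4% of the mitochondrial chromosome in replicate 1 and 47.5% in replicate 2, so matches there can come from peak density alone.

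The signals of the replicates went together across the mitochondrial peaks, less tightly by rank than across nuclear peaks. At the 19 mitochondrial optimal peaks overlapped in both replicates Spearman's rho was 0.56 and Pearson's r was 0.81. The replicate 1 peak at 11530 overlapped both the l-rRNA and the ND3 optimal peak, so its signal of 90.4 was used for both. At 415 nuclear peaks they were 0.71 and 0.89. Peaks of 1 list share their library, so these are descriptions without a p.

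The 20 optimal peaks covered 5615 bp, and the bases covered by both replicates came to 4379 bp (31.7% of the chromosome), against 59.2% covered by either. Of the bases under replicate 1 peaks 73.2% were also under replicate 2 peaks, and of those under replicate 2 peaks 66.8% were under replicate 1 peaks. Round the circle, neighbouring optimal summits were 211 to 1570 bp apart, with a median of 726 bp and the widest distance between ND5 and ND6, and 3 neighbouring pairs of peaks overlapped. Summits in protein-coding genes lay anywhere from 2.98% to 96.7% of the way along the gene, and of 16 such summits 7 lay in the first of 3 equal parts of the gene, 3 in the middle part and 6 in the last. No shared position within genes was seen.

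The part of the circle under no optimal peak fell into 17 stretches with a median of 460 bp. The longest, 1295 bp, ran from 12562 through the end of the reference sequence to 62. It held the 3′ part of ND5, tRNA-Ala, the non-coding region and tRNA-Pro. The next ran from 3642 to 4647 (1006 bp) over most of ND2, the tRNA cluster behind it and the start of CYTB, and another from 5618 to 6303 (686 bp) over most of COX3. A further 3, in l-rRNA from 10487 to 11131, at the start of ND5 from 11698 to 12256 and across the border of ND4 and COX1 from 7591 to 8138, were 645, 559 and 548 bp long. Of the named stretches, all but that at the start of ND5 held a replicate summit. The highest replicate signals were 185 in the longest and 60.0 in l-rRNA, both in replicate 2. In replicate 1 they were 26.2 in the ND2 stretch, 135 in COX3 and 53.8 across ND4 and COX1.

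The non-coding region after the last gene, from 13328 to 13794, is the longest stretch of this chromosome without a gene. Weak ND5 peaks of the pooled list and of replicate 2 reached up to 77 bp into it, and its last 390 bp, from 13405, had no peak in any list. Its GC content was 6.85%, and 41.2% of its 36-base words occurred more than once on the chromosome. Of all 13759 such words on the mitochondrial chromosome 12 also occurred in the nuclear genome, all of them in this region, and no word under an optimal peak did so. How reads with several matching places were treated is not given in the sources used here, and the part of repeated sequence in the empty stretch was not tested.

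Base composition moved with the signal. Bases under optimal peaks had a GC content of 25.6%, against 22.5% for the bases outside. The bases outside include the whole non-coding region of 467 bp, with a GC content of 6.85%, which lowers their share. Across the 20 optimal peaks Spearman's rho between signal and the GC content within 100 bases of the summit was 0.44 and Pearson's r was 0.53. In replicate 1 they were 0.69 and 0.63 over 22 peaks, and in replicate 2 they were 0.51 and 0.50 over 24 peaks. These peaks share a chromosome and a library, and the part of base composition in the signal was not tested. The windows around mitochondrial optimal summits had a median GC content of 24.9%, close to the 23.9% of all windows on that chromosome and below the 44.3% at nuclear optimal summits.

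**Figure D4:**
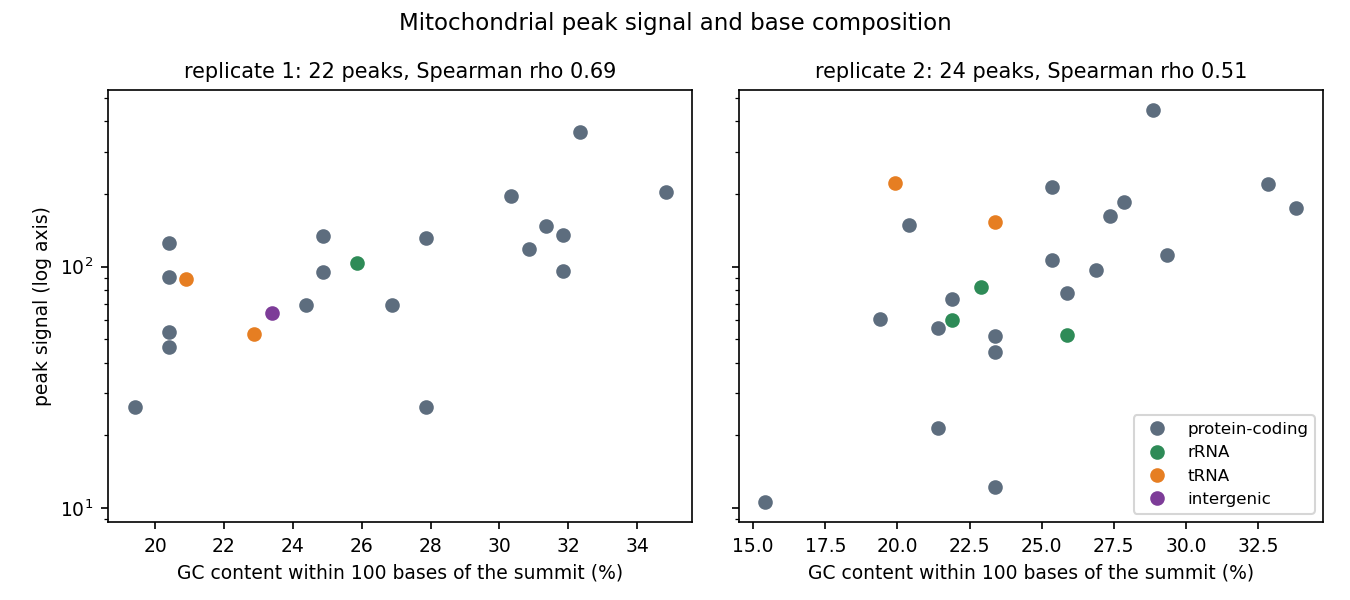
Deposited peak signal, on a log axis, against the GC content in percent within 100 bases of the summit, for the mitochondrial peaks of replicate 1 (22 peaks) and replicate 2 (24 peaks), coloured by the gene class under the summit. Signal was higher at GC-richer summits, with Spearman's rho of 0.69 in replicate 1 and 0.51 in replicate 2.

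Letters known from GATA factors were counted on both strands in the same windows. GATA was in 19 of the 20 summit windows (95%), against 78.4% of all windows of that length on the chromosome. The strong ND1 window at 2366 was the one without it. TGATAA, a longer form that contains GATA, was in 7 of 20 windows (35%, against 20.8% of all windows), among them ND5. AGTATAC, the core of the site known for MED-1, occurs 1 time on the chromosome, in the ND6 window, and 1.43% of all windows hold it. These matches describe letters and not binding. The ND5 window, with the highest signal, held a single GATA, whereas ND3, with a signal of 117, held 5.

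The nuclear genes that work with the mitochondrial ones were looked at through the optimal peaks assigned to them. Each peak was assigned to the gene with the nearest protein-coding transcription start within 2 kb of its summit. A gene near a peak was therefore assigned none where the start of another gene was closer. Of 43 listed genes 7 (16.3%) had such a peak, against 1.72% of all 19973 nuclear protein-coding genes. By complex they were 2 of 14 genes of complex I, 1 of 7 of complex III, 2 of 7 of complex IV and 1 of 9 of complex V, and 1 of 6 genes for copying, transcribing and packing the mitochondrial genome. The last was mtss-1, the mitochondrial single-stranded DNA binding protein, with a signal of 208. The others were weaker, with 66.8 at cyc-1, the cytochrome c1 gene, 51.1 at nuo-2, 48.1 at cox-6B, 44.0 at cox-6A, 40.5 at atp-2 and 40.1 at nduf-11. The signal at mtss-1 was within the range of the mitochondrial peaks and above their median, and the other 6 were below the median. The genes for the polymerase polg-1, the helicase twnk-1, the RNA polymerase rpom-1, the packaging protein hmg-5 and tfbm-1 were assigned no optimal peak, with pooled signals of 18.4 to 30.3.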

How the data were processed

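Anti-GFP ChIP-seq of MED-1-eGFP was measured in 2 replicates of 1 group. As the deposited file lists state, the authors made the peak list of each replicate, and a pooled list of both, from alignments of the samples and a control, and took the optimal set from these lists by irreproducible discovery rate (IDR). Signal (column 7 of the narrowPeak format) is the authors' deposited peak value, and ranks were computed from it. The q-value column is a deposited −log10 q-value by format, and since it falls below 0 it was used as a score. Aligner, caller, versions, IDR threshold and read depth were not given in the sources used here, so no error from read counts could be given.

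All positions are 1-based on ce11 (WBcel235). Gene names came from the RefSeq annotation of WBcel235, matched by position to all 36 Ensembl release 115 genes. A summit was assigned to the gene that holds it. Replicates matched when a summit lay within 100 bp. Letters and 36-base words were searched in the reference genome on both strands. Every mitochondrial gene under an optimal summit was named, with each gene or peak that a count singles out. Python 3.11.15, numpy 2.4.6, scipy 1.17.1 and matplotlib 3.10.9 were used, and the counting steps were checked on simulated peaks. No test between groups was possible with 1 group. The genes and the nuclear lists were chosen with earlier results of these data known, so no test was applied to them. Alternatives were the ce10 lists, the 230 strongest optimal peaks, a score of at least 2, the 460 strongest peaks of each replicate alone, the pooled list, and other match and assignment rules.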

Additional observations from a re-analysis of the deposited data

How the results depend on the processing

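Each replicate alone was taken as its 460 strongest peaks. Of 51 alternative values, 39 stayed close to the reported ones, 12 moved and 0 reversed. The covered share of the mitochondrial genome was 36.6% with the 230 strongest optimal peaks, 36.6% with a score of at least 2, 45.7% with the pooled list, and 41.5 to 43.4% when 1 replicate was left out. Any overlap in place of a summit gave 25 genes in place of 14. A limit of 50 bp put 55% of the peaks in both replicates. The median signal of mitochondrial over nuclear optimal peaks, 3.07, was 2.25 with the 230 strongest peaks, 2.07 with a score of at least 2, and 3.02 to 3.26 when 1 replicate was left out. The longest uncovered stretch was 686 bp in the pooled list. Listed nuclear genes with a peak numbered 2 among the 230 strongest and 1 with a score of at least 2, where fewer peaks are counted. Leaving out 1 replicate gave 21 to 22 mitochondrial peaks, 13 to 14 genes, 76.2 to 81.8% of summits in protein-coding genes, a longest stretch of 1244 to 1336 bp, and 5 to 6 listed nuclear genes. The whole replicate 2 list, with background, had 24 mitochondrial peaks, a covered share of 47.5% and a longest uncovered stretch of 876 bp. Replicate 2 cut to the length of the replicate 1 list, chosen after seeing the data, gave 85% and a rho of 0.56. The optimal, pooled and replicate 2 peaks of this chromosome lay at the same positions on ce10. The replicate 1 list differed, with 22 peaks on ce11 and 21 on ce10. Its summits lay a median of 5 bp and at most 304 bp from their nearest counterpart. The replicate 1 peak at 7355 in ND4 had a signal of 26.2 at rank 276 on ce11. On ce10 it had 43.6 at rank 134. Gene and coverage values were not run on ce10, for which no gene positions or chromosome length were used here. No paired analysis was possible because the result comes from no test between groups. The cause of the moved values, other than fewer or more peaks, was not tested. Without read depth, sites absent from a list cannot be told apart from sites under its limit.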
